A study of Oryctolagus cuniculus with 6 samples.

Results

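TRPV5, CASQ2, TNNC1 and JPH1 are 4 genes of calcium handling, described here in rabbit embryos that had been vitrified or slowly frozen. Their probes were taken by gene name, description or transcript record, which gave 15 of the 43603 non-control probes on the array. They are 4 of the 9651 genes to which a probe could be assigned by symbol. TRPV5 had 3 probes, CASQ2 3, TNNC1 2 and JPH1 7, the last under its older names MG72 and JP1. The genes were chosen because earlier results of these data showed them to differ between treatments. Their values are therefore given as a description, without a p-value.

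RNA came from blastocysts of 6 days of the New Zealand White strain, hybridised on 6 Agilent arrays with 2 dyes. Vitrified embryos (3 extracts) had been brought to 20% dimethyl sulphoxide with 20% ethylene glycol and plunged into liquid nitrogen. Frozen embryos (3 extracts) had been equilibrated in 1.5 M dimethyl sulphoxide, seeded with ice at -7 °C, cooled at 0.3 °C per minute to -35 °C and then plunged. Both kinds were afterwards transferred into recipient does and recovered as viable embryos, while control embryos (3 extracts) were untreated ones that had developed in vivo. Per the labels, each control extract was used on 1 vitrified and 1 frozen array of the same replicate number. The treated extract carried the red dye in replicates 1 and 3 and the green dye in replicate 2. Preservation and transfer cannot be told apart in this design, and the embryos per extract are not given in the sources used here. Since whole embryos were extracted, fewer cells of a type and less RNA per cell cannot be told apart either.

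Cells keep cytosolic calcium low by pumping it outward or into the endoplasmic reticulum, and they use brief rises of it as a signal. TRPV5 is a calcium-selective channel of the surface membrane, best known from the kidney, where calcium enters an epithelial cell before it is carried across. CASQ2, calsequestrin 2, binds calcium inside the sarcoplasmic reticulum of heart muscle. JPH1, junctophilin 1, holds the surface membrane close to that store in skeletal muscle, and TNNC1 is the troponin C of heart and slow muscle that senses calcium on the thin filament.

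In frozen embryos the brightest probes of TRPV5 and CASQ2 lay above control, by 2.23-fold and 2.77-fold, and that of TNNC1 lay 2.31-fold below control. In vitrified embryos the fitted values of TRPV5 and TNNC1 were near control, CASQ2 was 1.67-fold higher and JPH1 was 1.67-fold lower. The TNNC1 value averages vitrified arrays on opposite sides of control, with log2 ratios of -0.91, 0.79 and 0.38. JPH1 was lower by a like amount, 1.73-fold, in frozen embryos. Limma's moderated test, with Benjamini-Hochberg adjustment over the 30766 probes tested, called 3 of the 15 probes higher in frozen embryos at the threshold of 0.05. They were 2 of TRPV5 and 1 of CASQ2. Over all tested probes 0.0878% were called higher in that comparison, 0.0975% lower and 0.185% in either direction. None of the 15 was called in vitrified embryos, where 0.0195% of all probes were (5345 at an unadjusted p under 0.05). The contrast of vitrified with frozen embryos called 0% of all probes, with 2321 at an unadjusted p under 0.05. The genes were chosen from these contrasts, so nothing is read from the counts of calls.

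**Figure D1:**
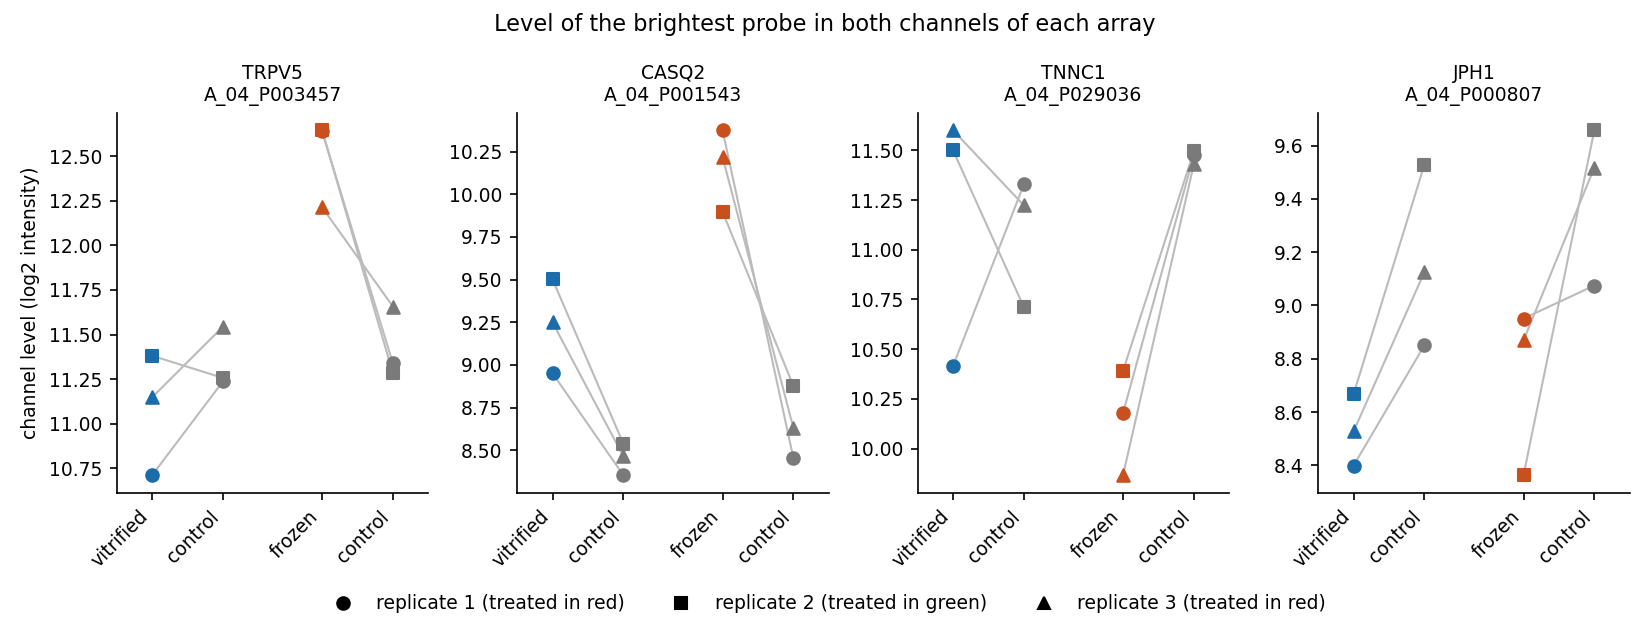
Channel level (log2 intensity, vertical axis) of the brightest probe of each gene in the treated extract, left, and in the control extract of the same array, right. Lines join both channels of an array and symbols mark the replicate, with vitrified arrays in blue, frozen in orange and controls in grey. The 3 frozen extracts lie above every control for TRPV5 and CASQ2 and below every control for TNNC1.

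TRPV5 was read by a pair of overlapping probes far along its transcript, starting at bases 2603 and 2633, and by another probe starting at base 279. In the array's annotation, whose genome build is not given in the sources used here, the pair lies on the plus strand at chr7:9228809-9228868 and chr7:9228839-9228898. The other covers chr7:9206749-9206944, which is 196 bases for a probe of 60, so it crosses an intron. The files do not mark exons or untranslated regions for these positions. The 30 bases common to the pair are shown first because both called probes contain them. That other probe is shown because it reads the other end of the transcript.
TRPV5 common bases: ttctccatactagcaatcaaacttcaacta
TRPV5 A_04_P004796: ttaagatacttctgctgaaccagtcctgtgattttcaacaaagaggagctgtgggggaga

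The level of the brightest TRPV5 probe, A_04_P003457, was 10.71, 11.38 and 11.15 in vitrified embryos (log2 intensity, replicates 1 to 3), against 11.24, 11.26 and 11.54 in the controls on the same arrays. In frozen embryos it was 12.64, 12.65 and 12.21, against 11.34, 11.28 and 11.66 in their controls. All frozen levels stood above every vitrified and every control level, while vitrified and control levels overlapped. Mean levels were 11.08 ± 0.34 in vitrified, 12.50 ± 0.25 in frozen and 11.39 ± 0.19 in control embryos (SD, n = 3 extracts each). Here and below, a control extract counts as the mean of its 2 arrays and a treated extract as 1 reading. The control SD thus leaves out the gap between those 2 arrays. Frozen embryos were highest, and vitrified and control embryos did not differ beyond their spread.

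The log2 ratio over control of A_04_P003457 was -0.53, 0.12 and -0.40 on the vitrified arrays. On the frozen arrays it was 1.30, 1.36 and 0.56, positive on all 3. The fitted log2 ratio was -0.18 ± 0.15 for vitrified and 1.16 ± 0.15 for frozen embryos (SE, n = 3 arrays each), and vitrified minus frozen was -1.34 ± 0.20. The other probe of the pair, A_04_P003456, gave log2 ratios of -0.54, -0.10 and -0.44 on vitrified arrays and 1.21, 1.41 and 0.52 on frozen arrays. Here the treatments lay on opposite sides of control on every array. Its fitted values were -0.28 ± 0.14 for vitrified and 1.12 ± 0.14 for frozen embryos. The pair shares bases and so gives 1 reading of the transcript rather than 2.

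The probe near the other end of TRPV5 showed a smaller difference in the same direction for frozen embryos. A_04_P004796 had log2 ratios of -0.22, 0.16 and 0.23 on vitrified arrays and 0.44, 0.33 and 0.41 on frozen arrays. It was dim, well above background in 8 of the 12 channels, of which 3 were frozen, 2 vitrified and 3 control. Its fitted log2 ratio was 0.06 ± 0.12 for vitrified and 0.40 ± 0.12 for frozen embryos, and it was not called.

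**Figure D2:**
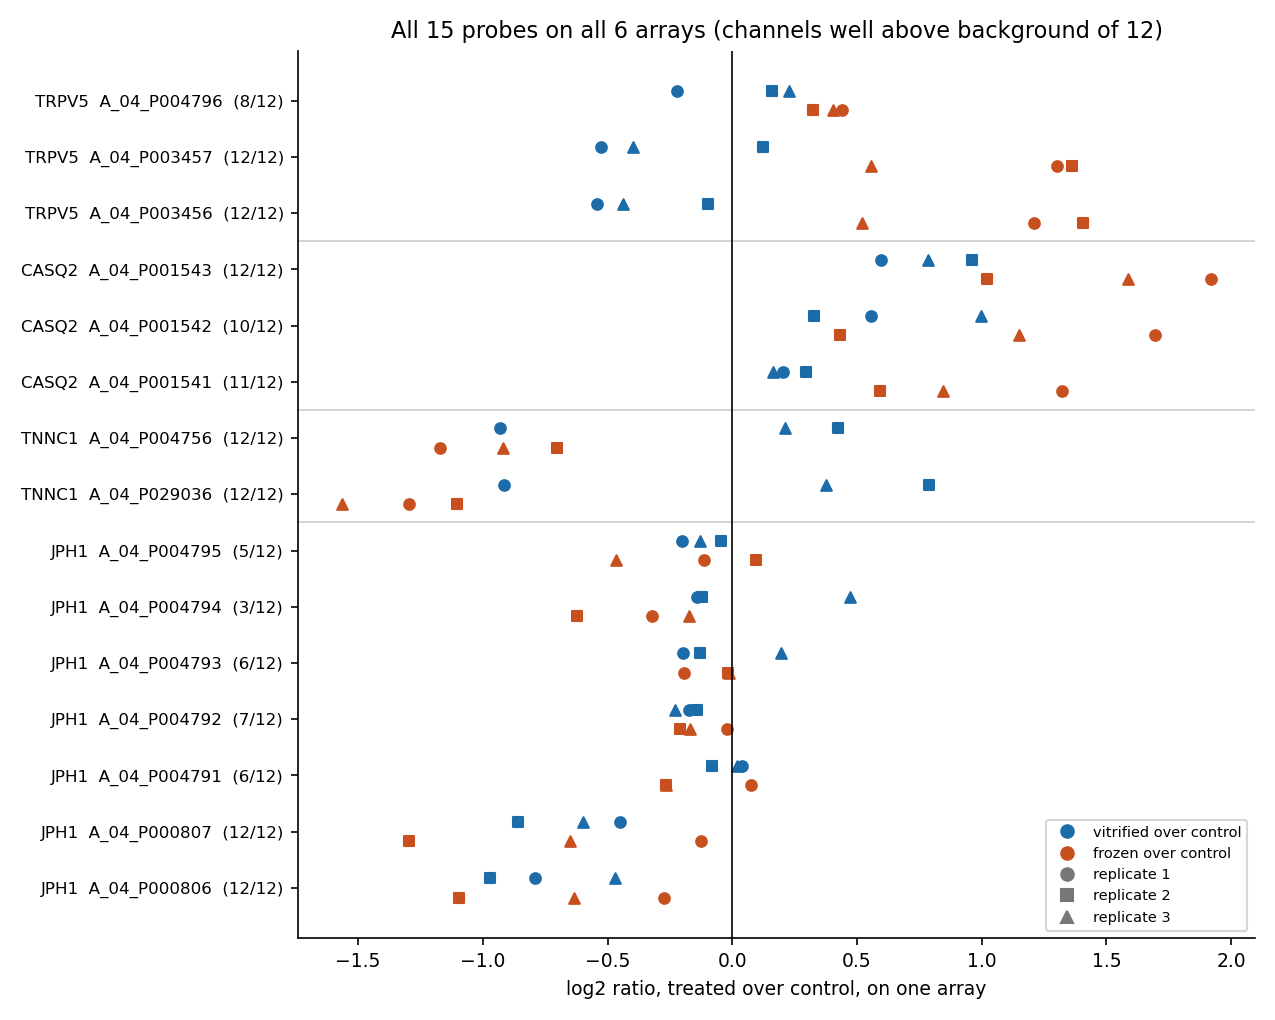
Log2 ratio of treated over control (horizontal axis) for each of the 15 probes on each of the 6 arrays, vitrified in blue and frozen in orange, with symbols for the replicate. The label of each probe gives the number of the 12 channels in which it was well above background. The bright JPH1 pair lies below 0 on every array. Of the 5 dim JPH1 probes only A_04_P004792 does so, and the others lie on both sides of 0.

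CASQ2 was read by 3 neighbouring probes of its transcript, starting at bases 2323, 2363 and 2406. The array's annotation places the brightest on the plus strand at chr13:48533829-48533888. Neighbouring probes share 20 and 17 bases, and these short stretches are shown because they tie the 3 readings to 1 end of the transcript.
CASQ2 shared by the first and middle probe: tgcagtatgatgctctaatt
CASQ2 shared by the middle and last probe: agtgtaaaacaccgtgc

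The level of the brightest CASQ2 probe, A_04_P001543, was 8.95, 9.50 and 9.25 in vitrified embryos (log2 intensity), against 8.35, 8.54 and 8.46 in their controls. In frozen embryos it was 10.38, 9.90 and 10.22, against 8.45, 8.88 and 8.63 in their controls. No group overlapped another: frozen stood highest, vitrified next and control lowest. The mean levels were 9.23 ± 0.28 in vitrified, 10.16 ± 0.24 in frozen and 8.55 ± 0.15 in control embryos (SD, n = 3 extracts each).

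CASQ2 ratios over control were positive for all 3 probes on all 6 arrays. For A_04_P001543 the log2 ratio was 0.60, 0.96 and 0.78 on vitrified arrays and 1.92, 1.02 and 1.59 on frozen arrays. Its fitted log2 ratio was 0.74 ± 0.16 for vitrified and 1.47 ± 0.16 for frozen embryos (SE, n = 3 arrays each), and vitrified minus frozen was -0.73 ± 0.23. The middle probe, A_04_P001542, had 0.55, 0.33 and 1.00 on vitrified arrays and 1.69, 0.43 and 1.15 on frozen arrays. A_04_P001541, the last along the transcript, had 0.21, 0.30 and 0.17 on vitrified arrays and 1.32, 0.59 and 0.85 on frozen arrays. Fitted values for frozen embryos were 0.97 and 0.89 for these 2 probes, and for vitrified embryos 0.51 and 0.19. The size of the vitrified value thus depended on the probe, from 0.19 to 0.74 on the log2 scale. On frozen arrays each CASQ2 probe was lowest in replicate 2, the array with swapped dyes.

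JPH1 was read by a bright pair of probes far along the transcript, starting at bases 4461 and 4537, and by 5 dim probes that start between bases 1483 and 1495. The array's annotation places the brightest at chr3:90056799-90056858 on the minus strand. The last 30 bases of that probe hold AATAAA, the usual signal for adding the poly(A) tail, and are shown with the hexamer in capitals. The second bright probe starts beyond them, at base 4537, so the transcript record does not end there. Whether the hexamer acts as that signal here was not tested. On the strand as printed, 1739 of the 43603 probes hold it (3.99%), and 1 of the 7 JPH1 probes does. None of the TRPV5, CASQ2 and TNNC1 probes holds these letters. Of the 5 dim probes 1 is shown, with the 48 bases that all 5 share in capitals, because they amount to 1 target.
JPH1 A_04_P000807, last 30 bases: ctgccaatgtacttAATAAAacatgacttt
JPH1 A_04_P004795: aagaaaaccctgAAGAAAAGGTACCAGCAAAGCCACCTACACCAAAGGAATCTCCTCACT

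The level of the brightest JPH1 probe, A_04_P000807, was 8.40, 8.67 and 8.53 in vitrified embryos (log2 intensity), against 8.85, 9.53 and 9.12 in their controls. In frozen embryos it was 8.95, 8.36 and 8.87, against 9.07, 9.66 and 9.52 in their controls. Each treated level was below the control on its own array. Vitrified levels stayed below every control level, whereas the frozen levels of replicates 1 and 3 overlapped the controls. Vitrified embryos averaged 8.53 ± 0.13, frozen 8.73 ± 0.32 and control 9.29 ± 0.32 (SD, n = 3 extracts each), and the 2 treatments did not differ beyond their spread.

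For A_04_P000807 the log2 ratio was -0.45, -0.86 and -0.60 on vitrified arrays and -0.12, -1.29 and -0.65 on frozen arrays. The fitted log2 ratio was -0.74 ± 0.14 for vitrified and -0.79 ± 0.14 for frozen embryos (SE, n = 3 arrays each), and vitrified minus frozen was 0.05 ± 0.19. The second bright probe, A_04_P000806, had -0.79, -0.97 and -0.47 on vitrified arrays and -0.28, -1.09 and -0.63 on frozen arrays. Both bright probes were below control on all 6 arrays and neither was called. The frozen array of replicate 1 stood nearest to control for both. In each treatment both probes were lowest in replicate 2, the array with swapped dyes. With the fitted dye term removed, A_04_P000807 had -0.43, -0.98 and -0.96 on frozen arrays.

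The 5 dim JPH1 probes lay nearer to control. Each was well above background in 3 to 7 of the 12 channels, and A_04_P004794 in none of the frozen controls. Their fitted log2 ratios ran from -0.19 to 0.02 in vitrified and from -0.43 to -0.08 in frozen embryos. A median over all 7 probes therefore gave -0.083 for vitrified and -0.17 for frozen embryos, far from the value of the brightest probe. A_04_P004792 was below control on all 6 arrays, unlike the other dim probes. Dim probes that share 59 bases correlated at r = 0.06, -0.73 and 0.39 over the 6 arrays. With the brightest probe the 5 correlated at r from -0.68 (A_04_P004793) to 0.87 (A_04_P004792). As a set the 5 thus gave no steady reading.

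**Figure D3:**
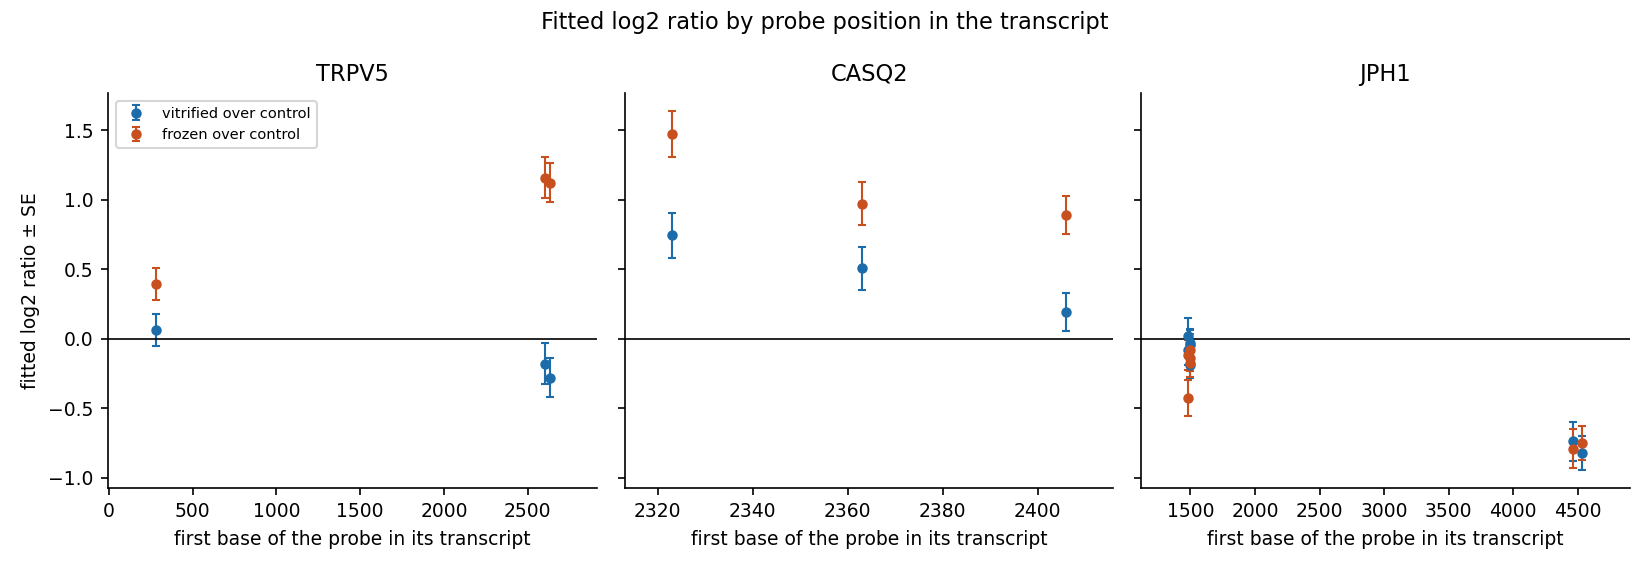
Fitted log2 ratio over control with its standard error (vertical axis) against the first base of each probe in its transcript (horizontal axis, a different span in each panel), for TRPV5, CASQ2 and JPH1, vitrified in blue and frozen in orange. TRPV5 and JPH1 values are farther from 0 at the high base numbers, at 1.16 for TRPV5 in frozen and -0.74 for JPH1 in vitrified embryos, than at the low ones, where the probes are dim.

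TNNC1 was read by 2 probes that share no bases and come from different transcript records. A_04_P004756 starts at base 26 of its record and covers chr9:19524492-19526157, and the brighter A_04_P029036 covers chr9:19523614-19523749, both on the minus strand of the array's annotation. At 1666 and 136 bases these spans exceed the 60 bases of the probes, so each crosses at least 1 intron. Both are shown whole, since they give separate readings of the same gene.
TNNC1 A_04_P004756: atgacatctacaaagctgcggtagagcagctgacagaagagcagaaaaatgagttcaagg
TNNC1 A_04_P029036: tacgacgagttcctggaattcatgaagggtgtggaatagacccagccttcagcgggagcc

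The level of the brighter TNNC1 probe, A_04_P029036, was 10.41, 11.50 and 11.60 in vitrified embryos (log2 intensity), against 11.33, 10.71 and 11.22 in their controls. In frozen embryos it was 10.18, 10.39 and 9.87, against 11.48, 11.50 and 11.43 in their controls. Frozen levels were below every control, and the lowest vitrified level lay just above the highest frozen one. Vitrified embryos averaged 11.17 ± 0.66, frozen 10.14 ± 0.26 and control 11.28 ± 0.16 (SD, n = 3 extracts each). Vitrified and control embryos overlapped, and the vitrified extracts were the most spread.

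For A_04_P029036 the log2 ratio was -0.91, 0.79 and 0.38 on vitrified arrays, against -1.30, -1.10 and -1.56 on frozen arrays. The fitted log2 ratio was 0.20 ± 0.24 for vitrified and -1.21 ± 0.24 for frozen embryos (SE, n = 3 arrays each), and vitrified minus frozen was 1.41 ± 0.33. A_04_P004756 showed the same order, with -0.93, 0.42 and 0.21 on vitrified arrays and -1.17, -0.70 and -0.92 on frozen arrays. Its fitted values were -0.01 ± 0.21 for vitrified and -0.84 ± 0.21 for frozen embryos. The vitrified replicate 1 stood near the frozen arrays for both probes, and the vitrified replicates 2 and 3 stood above control. Leaving out that array moved the vitrified value of A_04_P029036 to 0.58, and leaving out replicate 2 moved it to -0.10. For this probe the control extract of replicate 2 read 10.71 on its vitrified array and 11.50 on its frozen array. That gap of 0.78 is about the size of the vitrified ratio of 0.79, which was taken against the lower reading.

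The arrays lay on 2 slides, with vitrified replicate 1 and frozen replicates 1 and 2 on slide 1 and the rest on slide 2. With the fitted dye term removed, vitrified minus frozen for the brightest probe of TRPV5 was -1.61 on slide 1 and -0.95 on slide 2. For CASQ2 it was -0.99 and -0.60, for TNNC1 0.63 and 1.80, and for JPH1 -0.05 and 0.23. The sign was thus the same on both slides for TRPV5, CASQ2 and TNNC1. Frozen over control was 1.33 and 0.81 for TRPV5, 1.47 and 1.47 for CASQ2, -1.20 and -1.22 for TNNC1 and -0.71 and -0.96 for JPH1. Vitrified over control kept its sign on both slides for TRPV5, CASQ2 and JPH1 and was -0.57 and 0.58 for TNNC1. With slide as a covariate none of the 15 probes was called in any comparison.

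The calls themselves rested on few arrays. TRPV5 and CASQ2 each lost their call in frozen embryos without any one of vitrified replicates 2 and 3 and frozen replicates 1, 2 and 3. Without vitrified replicate 1, 513 probes were called in frozen embryos, against 57 with all arrays, and all 4 genes then had a called probe. Over these 6 fits the frozen value of the brightest TRPV5 probe ran from 0.96 to 1.33, and that of CASQ2 from 1.30 to 1.89. The vitrified value of CASQ2 fell to 0.32 without vitrified replicate 2.

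Other genes of calcium handling were set beside the 4 through 7 lists with 167 genes in all, of which 90 were tested. The lists were drawn up with earlier results of these data known. Of the 86 tested genes that remain without the 4, limma called 1 higher and none lower in frozen embryos, and none in vitrified embryos. Over all 8091 genes tested, 0.136% were called higher and 0.0865% lower in frozen embryos (0.222% in all), and 0.0247% were called in vitrified embryos. At an unadjusted p under 0.05 were 23 of the 86 genes in vitrified and 19 of the 86 in frozen embryos. Over all 8091 genes these counts were 1348 (16.7%) and 1054 (13%), so the lists held a larger share. Between the treatments none was called, with 17 of the 86 and 632 of the 8091 genes (7.81%) at an unadjusted p under 0.05. Median log2 ratios of the 90 genes were 0.02 for vitrified and -0.01 for frozen embryos, against -0.01 and -0.00 over all genes.

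The 1 further called gene was STC1, stanniocalcin 1, a secreted hormone that acts on calcium and phosphate transport. Its single probe had log2 ratios of 0.45, 0.62 and 0.07 on vitrified arrays and 0.67, 0.94 and 0.65 on frozen arrays, positive on all 6. Its fitted log2 ratio was 0.43 ± 0.11 for vitrified and 0.80 ± 0.11 for frozen embryos, with limma's adjusted p = 0.048 for frozen. The call was lost under 7 of 10 alternatives and without each array other than vitrified replicate 1.

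Among the calcium entry channels, 13 genes were tested, and 6 were above and 7 below 0 in vitrified embryos, 5 above and 8 below in frozen embryos. TRPV5 was the 1 called. TRPV6, its closest relative and its neighbour with 0 genes between them in the RefSeq table of assembly mOryCun1.1, had log2 ratios of -0.20, -0.02 and -0.05 on vitrified arrays. On frozen arrays TRPV6 had 0.56, 0.17 and 0.47, positive like those of TRPV5 but smaller, and it was not called. Whether either gene's probes also bind the other's RNA was not tested. TRPM6, a magnesium and calcium channel of epithelia, had fitted log2 ratios of 0.47 in vitrified and 0.45 in frozen embryos, and TRPC1, a cation channel, had -0.30 and -0.14.

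The list of epithelial calcium transport, TRPV5 included, held 14 tested genes, with 6 above and 8 below 0 in vitrified and 9 above and 5 below in frozen embryos. CALB1, calbindin of 28 kDa, buffers calcium on its way across the cell and was picked after its values were seen. Its log2 ratios were -1.42, -0.92 and 0.24 on vitrified arrays and -0.85, -1.51 and -0.96 on frozen arrays, and it was not called. SLC8A1, a sodium and calcium exchanger that exports calcium, had a fitted log2 ratio of 0.35 ± 0.15 in vitrified and 0.86 ± 0.15 in frozen embryos and was not called. KL, klotho, a co-receptor involved in calcium and phosphate balance, had 0.60 in vitrified and 0.26 in frozen embryos.

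CASQ2 belonged to a list of calcium buffers of the reticulum with 14 tested genes, of which it was the 1 called, in frozen embryos. Its skeletal muscle relative CASQ1 had fitted log2 ratios of -0.16 ± 0.09 in vitrified and -0.03 ± 0.09 in frozen embryos. RCN1, reticulocalbin 1, a calcium-binding protein of the reticulum, was at -0.27 and -0.82 and not called. PDIA4, a protein disulphide isomerase that helps proteins fold there, was at 0.80 in vitrified and 0.28 in frozen embryos. The list's median was 0.02 for vitrified and -0.05 for frozen embryos, near the median of all genes. In the list of release channels, pumps and exchangers 19 genes were tested and none was called in either treatment.

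JPH2, the heart relative of JPH1, had log2 ratios between -0.07 and 0.19 on vitrified arrays and between -0.01 and 0.23 on frozen arrays. It did not share the low values of JPH1. The list of junctions between the surface membrane and the reticulum held 9 tested genes, with 6 above and 3 below 0 in vitrified and 4 above and 5 below in frozen embryos. CASQ2 was its 1 called gene.

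TNNC2, the troponin C of fast muscle, had a fitted log2 ratio of 0.15 ± 0.13 in vitrified and -0.35 ± 0.13 in frozen embryos. This is the same order as TNNC1 at a smaller size. Of the 14 tested troponin, tropomyosin and sarcomere genes 9 were above and 5 below 0 in vitrified embryos, while 4 were above and 10 below in frozen embryos. None was called in either treatment. MYH7, the myosin of heart and slow muscle, was at -0.31 ± 0.17 in vitrified and -0.69 ± 0.17 in frozen embryos, and MYH3, an embryonic myosin, at 0.61 ± 0.13 and 0.18 ± 0.13. In the list of calcium sensors and their targets 14 genes were tested and none was called, with CAMK2G, a calmodulin-dependent kinase, at 0.61 in vitrified and 0.16 in frozen embryos.

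**Figure D4:**
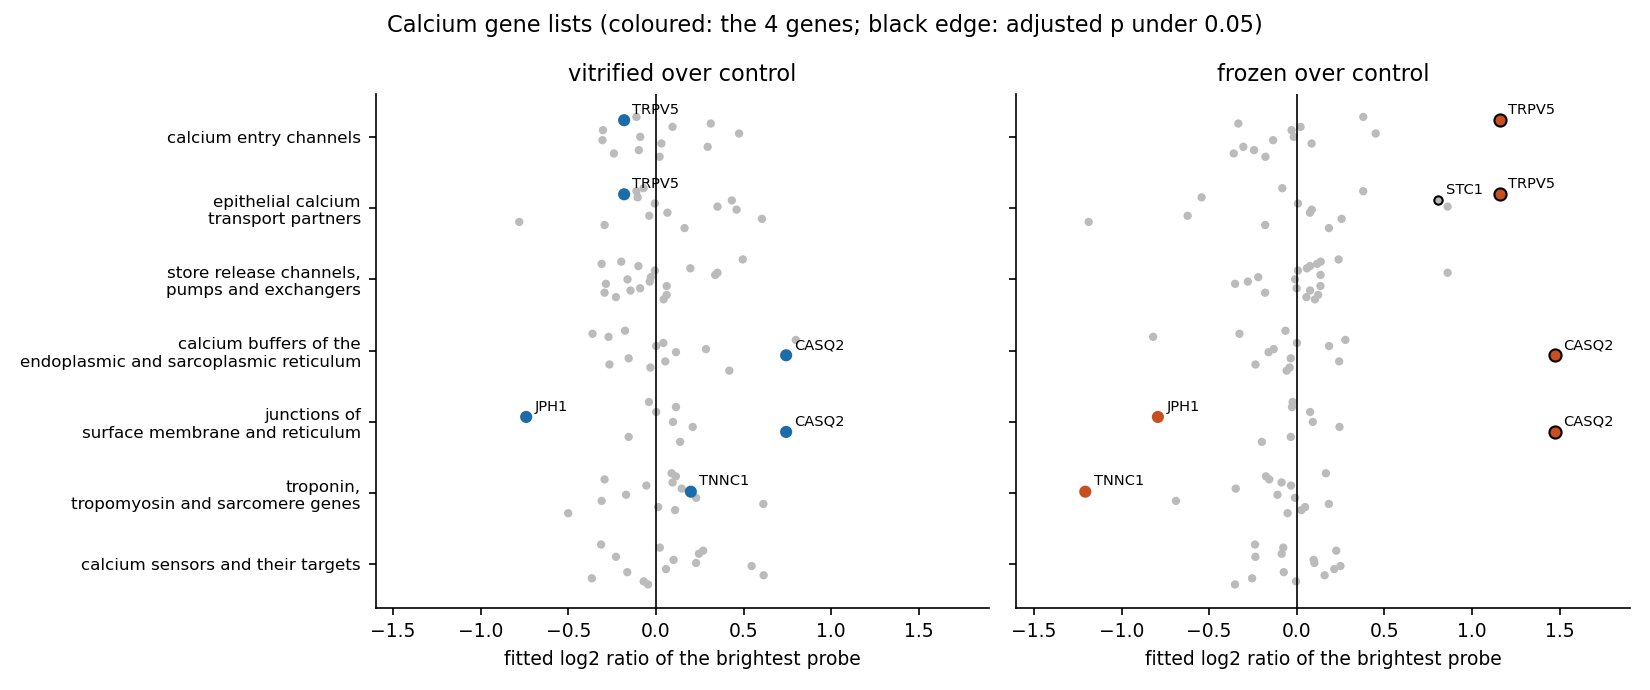
Fitted log2 ratio over control (horizontal axis) of the brightest probe of each tested gene in 7 calcium lists, vitrified on the left and frozen on the right. Coloured points are TRPV5, CASQ2, TNNC1 and JPH1, and a black edge marks genes called at an adjusted p under 0.05, which are TRPV5, STC1 and CASQ2 in frozen embryos and none in vitrified embryos.

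For each gene the 3 others most like it were found by Pearson's r of dye-adjusted log2 ratios over the 6 arrays, among 8086 genes. The arrays share control extracts and the search was wide, so the r is only a description of likeness in shape. TRPV5 was most like ANKRD13B (r = 0.996), IQGAP1 (r = 0.996) and PKD2L2 (r = 0.995). CASQ2 was most like KIF2A (r = 0.999), SMAP1 (r = 0.998) and PROM2 (r = 0.997). TNNC1 was most like RERG, FCSK and TRIM5, and JPH1 was most like HDGF, KCNMA1 and RND2, all with r of at least 0.994. Pearson's r ignores offset and size, and the fitted values of the alike genes often differed from those of the 4. IQGAP1 had fitted log2 ratios of 0.02 in vitrified and 0.20 in frozen embryos, and ANKRD13B had -0.29 and -0.01. FCSK stood at -0.33 and -0.38, without the difference between treatments of TNNC1. HDGF stood at 0.35 and 0.34, above control where JPH1 was below.

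The arrays' label of blastocyst was set against markers, and POU5F1, DPPA5, LIN28A and DNMT3B of the inner cell mass and epiblast were all measured above background. CASQ2, TNNC1 and JPH1 are best known from muscle, for which 9 of 17 markers were on the array and 8 were tested. Their summed level was 11.79 to 12.15 in vitrified, 11.51 to 11.93 in frozen and 12.04 to 12.37 in control embryos (log2 intensity). Of the 8 tested, 7 were above 0 in vitrified and 4 in frozen embryos by fitted log2 ratio, and none was called. MYH7 was below control on all 3 frozen arrays and MYOG above it on all 3. Smooth muscle markers of the uterine wall (7 of 8 on the array) summed to 11.70 to 12.28 in vitrified, 11.42 to 11.58 in frozen and 11.53 to 11.99 in control embryos, and MYH11 was not well above background in any channel. Markers of uterine epithelium (5 of 8) summed to 12.02 to 12.81, 10.67 to 12.08 and 10.65 to 11.81 in the same order, with ESR1 never above background.

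Blood markers (7 of 8 on the array) summed to 13.92 to 17.31 in vitrified, 12.22 to 15.32 in frozen and 11.64 to 13.55 in control embryos, with PTPRC never above background. Endoderm and yolk sac markers (7 of 11) summed to 12.89 to 13.71 in vitrified, 12.28 to 12.80 in frozen and 13.02 to 13.86 in control embryos, with TTR never above background. Inner cell mass and epiblast markers (4 of 9) summed to 13.83 to 14.14 in vitrified, 13.17 to 13.49 in frozen and 13.39 to 14.27 in control embryos. Trophectoderm markers (6 of 10) summed to 14.62 to 14.92 in vitrified, 14.52 to 14.67 in frozen and 14.05 to 14.77 in control embryos, with ELF5 never above background. By summed level alone, vitrified embryos did not overlap control for blood and uterine markers, where they were higher, and frozen embryos did not for endoderm and muscle markers, where they were lower. Single markers differed in direction. By fitted log2 ratio 4 of 5 tested blood markers and 4 of 4 uterine markers were above 0 in vitrified embryos. Of 6 endoderm markers 2 were above 0 in frozen embryos, DAB2 among them, while APOA1, RBP4, TF and GATA4 were below control on all 3 frozen arrays. The log2 ratios of APOA1, RBP4 and TF ran from -1.52 to -0.87 on frozen arrays. They were -1.45, -1.34 and -1.07 on vitrified replicate 1, and 0.33, 0.10 and -0.46 on vitrified replicate 2. On vitrified replicate 3 they were 0.61, 0.71 and 0.43. No marker of any list was called in either treatment. The part of these cell types in the values of the 4 genes was not tested.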

How the data were processed

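RNA of vitrified, frozen and control rabbit blastocysts was measured on 6 Agilent 2-colour arrays. Per the file headers, each deposited intensity is the mean pixel signal of a spot, listed with its median local background and without normalisation. The software was Agilent Feature Extraction 10.10.1.1, per the submitters' processing notes. The deposited log10 ratio sets red over green processed signals, per the file headers, and was tried as an alternative. Whether a signal was well above background was taken from the scanner's flag.

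From the intensities, background was corrected by normexp with an offset of 50 and each array normalised by loess in limma 3.58.1 under R 4.3.3, with control and outlier spots at weight 0. Spots of a probe were averaged. A probe was tested if it was well above background in 3 or more of 12 channels, 30766 of 43603, and 21157 probes had 1 gene symbol, 138 several, 1343 a gene number only and 20965 none. The tested probes covered 8091 genes. Log2 ratios of treated over control were fitted with a coefficient per treatment and a dye term, leaving 3 residual degrees of freedom, followed by eBayes. Calls use a Benjamini-Hochberg adjusted p over all tested probes. Channel levels come from quantile normalisation of the average intensities. The brightest probe of a gene is that of the highest mean intensity. The labels do not say how extracts were pooled, so p-values measure at most the spread between these extracts. The dyes were swapped only in replicate 2, whose 2 arrays share 1 control extract. The dye term therefore also takes up whatever sets that control extract apart, and the 2 cannot be told apart. Standard errors and p-values leave out that part of the spread between extracts. The number of arrays limits the precision.

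The genes, lists and tests were chosen with earlier results of these data known. Named are all probes of the 4 genes, list genes that were called or, for a list and comparison (vitrified minus frozen included) without a call, genes from the 3 largest values among those of 1 sign on all arrays of each treatment, and the 3 most alike genes. CALB1, CASQ1 and JPH2 were named outside this rule, after their values were seen. The fit was tested on simulated arrays with independent errors. These had no shared control extracts and no slide differences, so that test does not cover either. Alternatives covered background, normalisation, filter, dye, spread, block, slide, probe choice and each array left out.

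The labels give paired vitrified and frozen arrays the same control extract. Deviations from the group means of paired arrays correlated at 0.017, 0.594 and 0.165 for replicates 1, 2 and 3, and replicate 2 also shares the swapped dyes.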

Additional observations from a re-analysis of the deposited data

Results flagged for a closer look

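TRPV5 probe A_04_P003456 stood on opposite sides of control in the 2 treatments, below it on all 3 vitrified arrays and above it on all 3 frozen arrays. Vitrified minus frozen was -1.40 on the log2 scale. Limma's contrast of the treatments over all tested probes did not call it. TRPV5 had been chosen for this difference, so no p is given, and the arrays of both treatments share control extracts.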

How the results depend on the processing

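With all arrays 6 probes were called in vitrified and 57 in frozen embryos and none between the treatments (2321 at an unadjusted p under 0.05). The deposited log ratio called 0 in vitrified and 1 in frozen embryos, no background correction 0 and 3, and slide as a covariate 0 and 3. Slide as a covariate of the treated over control ratio, added after seeing the data, called 0 and 0. Calls in frozen embryos numbered 33 under median centring, of which 8 were higher and 25 lower, and 8 without the dye term. Calls of the entry channel, epithelial, buffer and junction lists, recounted after seeing the data, fell to 0 under the deposited ratio, no background correction and both slide fits. The entry channel and epithelial lists also fell to 0 under median centring and without the dye term, and the epithelial list fell to 1 with a filter at 6 of 12 channels. CASQ2 kept a call in frozen embryos under 6 of 10 alternatives and TRPV5 under 4.

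Vitrified over control of CASQ2 moved to 0.94 and that of JPH1 to -0.97 under the deposited log ratio. A median over probes gave 0.51 for CASQ2 and -0.083 for JPH1 in vitrified embryos, and 0.97 and -0.17 in frozen embryos. The other 126 recomputed values of the 4 genes, arrays left out aside, moved by less than 1 SD between replicates. Vitrified minus frozen of JPH1, 0.05 with all settings as reported, was -0.13 under median centring and -0.079 with slide as a covariate, and no other of these values changed sign. The cause was not tested. The arrays paired by replicate number were fitted with the replicate block, which called 8 probes in vitrified, 61 in frozen and 0 between treatments and changed no call of the 4 genes.

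Leaving out each array in turn gave 0 to 16 calls in vitrified, 0 to 513 in frozen and 0 between treatments. Over these fits vitrified over control ran from 0.32 to 0.87 for CASQ2 and from -0.98 to -0.66 for JPH1, and frozen over control from -1.33 to -0.90 for TNNC1. List calls in frozen embryos ran from 0 to 4 for the epithelial list, 0 to 2 for buffers and for junctions, and 0 to 1 for entry channels, store release and troponins, and stayed at 0 for sensors. With an array left out, values near 0 could change sign: vitrified over control of TNNC1 ran from -0.10 to 0.58 and vitrified minus frozen of JPH1 from -0.14 to 0.26. Dim probes, as 5 of JPH1, limit what can be seen of small differences.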
